A study of Homo sapiens with 6 samples.

Results

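The genes described here are the ligands and receptors of the tumour necrosis factor (TNF) superfamilies in Hep3B cells labelled as control and as RFX6 knockout. The members were chosen by name, as every gene whose symbol starts with TNFRSF or TNFSF together with TNF, FAS, FASLG, LTBR, LTB, CD40, CD27, CD70 and EDAR. This gave 38 of the 16720 named genes and transcripts in the table of counts, of which 23 are receptors and 15 are ligands. CD40 had no row under that symbol in the table of counts. No measured value entered this rule, but the family itself was proposed with the levels and log2 fold changes of the same comparison known, so the counts below are a description and nothing is drawn from them.

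TNF ligands are mostly trimeric proteins held in the cell membrane or cut from it, and their receptors span the membrane of the responding cell. Receptors with a death domain bind adaptors such as FADD and TRADD, which lead to caspases, whereas other receptors bind TRAF proteins, which lead to the NF-kB transcription factors and to JNK. Decoy receptors bind a ligand without passing on a full signal. In the liver, TNF and its receptors are known for their part in both hepatocyte death and regeneration, and NF-kB decides much of the balance between them.

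Hep3B is an established human hepatocellular carcinoma (HCC) cell line, and RFX6 encodes a transcription factor of the RFX family. The series holds RNA sequencing of 3 libraries with a control guide (sgControl, genotype WT) and 3 libraries with a guide against RFX6 (sgRFX6, genotype RFX6 knockout), and the comparison asks which transcripts differ between them. By the study's methods, the guides, a control guide among them, were cloned into lentiCRISPRv2, a vector that also carries Cas9 and puromycin resistance, and clones were grown from single cells after selection with puromycin. How many clones the libraries stand for is not given in the sources used here, and differences between clones and effects of the knockout cannot be told apart. The columns of the table call the control cas and the knockout sg3, and cas was taken as sgControl, the only control group.

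The libraries held between 16730374 and 25070770 counts, so that 3 counts, taken as the floor, are worth between 0.122 and 0.189 CPM. CPM stands for counts divided by library size as adjusted with edgeR's TMM factors, and n is 3 libraries per group throughout. Libraries of 1 group differed by far more than counting error (chi-square between 17.0 and 124 per degree of freedom), and none was treated as a copy of another. Deviations from the group mean followed the GC content of the genes in 5 of the 6 libraries, with a Spearman correlation across genes from -0.85 in sgRFX6 library 3 to 0.72 in sgRFX6 library 2 (0.05 in sgControl library 3). Summed markers of liver tumour cells lay between 307 and 358 CPM in sgControl and between 252 and 273 CPM in sgRFX6, with 8 of 8 above the floor. Of these, AFP, a fetal liver protein, rose by 2.82 on the log2 scale (SE 0.32, edgeR adjusted p = 0.00254), and APOB, APOH and HNF4A were lower without overlap, at -1.29, -0.38 and -0.27, none of them past the threshold. Leukocyte markers, 6 of 7 above the floor and mostly CD68, summed to between 76.6 and 163 CPM in sgControl and between 69.4 and 110 CPM in sgRFX6, and CD3E had at most 1 count in any library. Of the 5 tested, ITGAM rose by 1.26 (SE 0.28, edgeR adjusted p = 0.0449). Endothelial markers, 2 of 3 above the floor, summed to between 11.6 and 13.5 CPM and between 13.3 and 19.6 CPM, with KDR at no more than 1 count. Fibroblast or stellate markers, 6 of 6 above the floor, summed to between 24.9 and 33.1 CPM and between 21.3 and 56.4 CPM, mostly LUM. Of the 4 tested, COL1A1 fell by 2.08 (SE 0.33, edgeR adjusted p = 0.0108) and COL1A2 by 3.71 (SE 0.42, edgeR adjusted p = 0.00276). The part of these markers in the results below was not tested.

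The target was checked first. RFX6 was counted 117, 144 and 170 times in sgControl and 69, 59 and 77 times in sgRFX6. Every knockout library lay below every control library, and transcripts remained in all of them. On the log2 scale the difference (sgRFX6 minus sgControl, as for every log2 fold change below) was -0.82 with a standard error (SE) of 0.26, and it missed the threshold of 0.05 (edgeR adjusted p = 0.142). By the study's methods, the knockout was also checked by qRT-PCR and western blotting. The counts here do not measure protein.

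Hep3B cells expressed more of the receptors than of the ligands. Of the 23 receptors, 17 passed edgeR's filter on low counts, against 6 of the 15 ligands. Between sgRFX6 and sgControl, 4 of the 23 tested members had an adjusted p under 0.05 in edgeR's quasi-likelihood test with Benjamini-Hochberg adjustment over all tested genes. This is 17.4% of them, beside 3.74% of the 12839 tested genes. TNFRSF19 and TNFRSF4 fell, beside 1.81% of all tested genes that fell, and TNFRSF11A and TNFSF13 rose, beside 1.92% that rose. In bulk RNA, fewer cells that express a gene and less RNA per cell cannot be told apart.

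Of the tested members, 8 had an unadjusted p under 0.05, beside 15.6% of all tested genes. The libraries of both groups did not overlap in 9 members, 5 higher and 4 lower in sgRFX6, beside 12.0% higher and 11.2% lower over all tested genes. The median log2 fold change of the members was 0.09, beside 0.02 over all tested genes, and 12 members lay within 0.5 of sgControl on the log2 scale. Limma-voom with sample quality weights called 15 members, beside 31.1% of all genes.

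**Figure D1:**
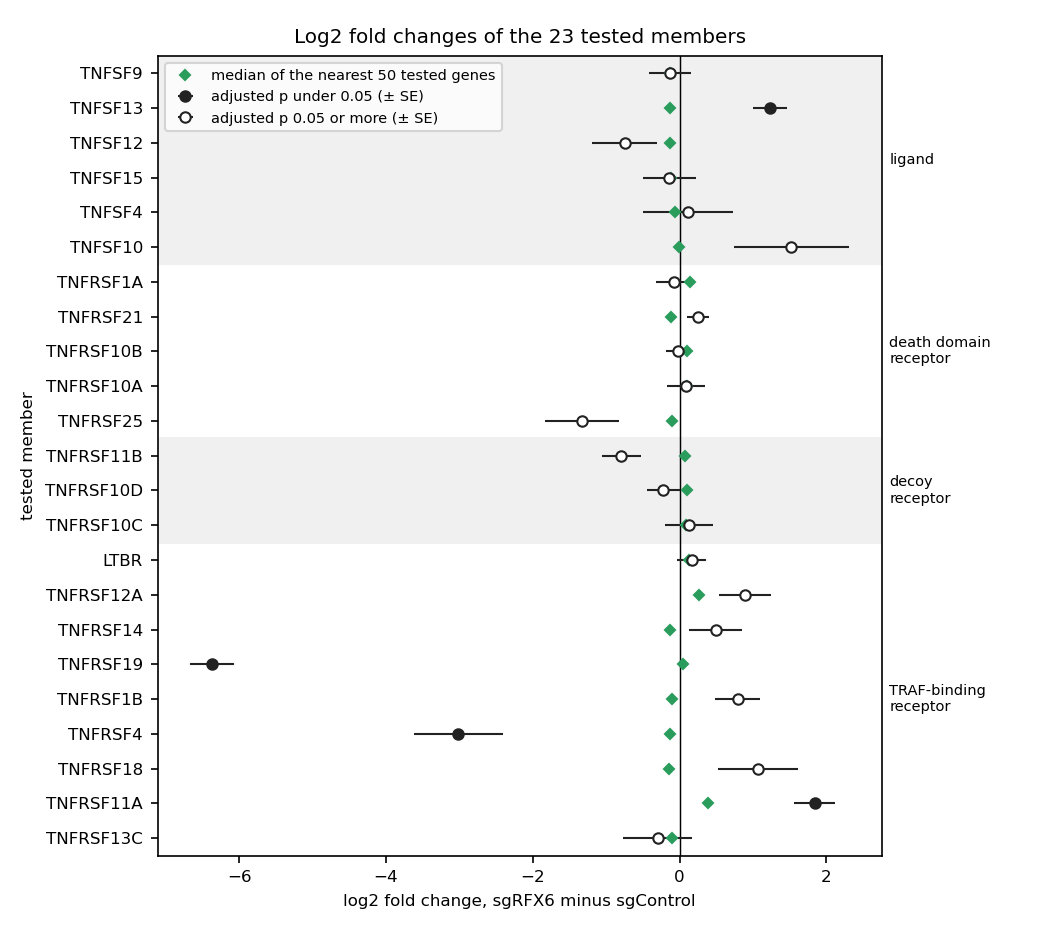
Log2 fold changes (sgRFX6 minus sgControl, horizontal axis) of the 23 tested members, ordered by role, with standard errors as bars and adjusted p under 0.05 as filled circles. Green diamonds are the median of the nearest 50 tested genes on the same chromosome. TNFRSF19 (-6.36) and TNFRSF4 (-3.01) lie far to the left, while the diamonds lie between -0.14 and 0.39.

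Of the 6 tested ligands, edgeR and DESeq2 called 1, TNFSF13, beside 3.74% and 6.97% of all tested genes. Limma-voom also called TNFSF10, beside 31.1% of all tested genes. TNFSF13 encodes APRIL, a secreted ligand of receptors on B cells and plasma cells, on chromosome 17 (GRCh38, 7558292 to 7561608, forward strand). It was counted 143, 231 and 162 times in sgControl and 374, 292 and 389 times in sgRFX6, which is 6.89, 9.36 and 6.99 CPM against 18.6, 18.4 and 17.7 CPM. All knockout libraries were above all control libraries and lay close together, at 18.2 ± 0.472 CPM (SD, n = 3) against 7.75 ± 1.39 CPM (SD, n = 3). TNFSF13 rose by 1.23 on the log2 scale (SE 0.23, edgeR adjusted p = 0.0211). The call was lost without sgControl library 1, sgControl library 3, sgRFX6 library 1 or sgRFX6 library 2, with edgeR adjusted p of 0.102, 0.127, 0.0949 and 0.0663.

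TNFSF13 lies next to TNFSF12, which encodes TWEAK, and a readthrough transcript named TNFSF12-TNFSF13 joins both. The readthrough shares 1263 exon bases with TNFSF13 and 553 with TNFSF12, so that their counts depend on how reads were assigned and are uncertain. The readthrough was counted 0, 0 and 9 times in sgControl and 0, 16 and 0 times in sgRFX6. TNFSF12 itself ranged from 3.57 to 8.95 CPM in sgControl and from 2.50 to 4.57 CPM in sgRFX6, with a log2 fold change of -0.75 (SE 0.44, edgeR adjusted p = 0.482) and overlapping groups. The 3 transcripts summed to 13.3 ± 4.36 CPM (SD, n = 3) in sgControl and 21.7 ± 1.5 CPM (SD, n = 3) in sgRFX6, a log2 ratio of 0.71, which is smaller than the value of TNFSF13 alone. Their sums did not overlap between the groups. The 10 tested genes nearest to TNFSF13, 5 on each side, had log2 fold changes between -0.85 and 0.13 with a median of -0.24. Farther out, ATP1B2 rose by 4.10 (SE 0.81, edgeR adjusted p = 0.0263), from 0.0675 to 1.32 CPM.

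TNFSF9, the ligand of a costimulatory receptor of T cells, was counted 592, 483 and 463 times in sgControl and 545, 330 and 315 times in sgRFX6. Scaled to library size the groups overlapped, and the log2 fold change of -0.13 (SE 0.29, edgeR adjusted p = 0.901) turned positive under 4 of the 17 alternatives. The other tested ligands were low. TNFSF10, which encodes TRAIL, reached at most 23 counts in any library, TNFSF4, the ligand of the receptor OX40, at most 16, and TNFSF15 lay between 36 and 91 counts. The groups overlapped in all 3, and their edgeR adjusted p lay between 0.411 and 0.965.

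The 9 untested ligands included TNF itself, counted 0, 5 and 2 times in sgControl and 2, 1 and 1 times in sgRFX6. TNF was therefore near the floor in both groups and was not tested, and a small difference could not be seen at this depth. LTB, a subunit of the ligand of LTBR, had between 2 and 7 counts, and FASLG, the ligand of FAS, had 1 count in 1 sgRFX6 library and 0 elsewhere. CD70, TNFSF8, TNFSF13B, TNFSF14, TNFSF18 and the readthrough transcript had at most 16 counts in any library. TNFSF18, the ligand of TNFRSF18, was counted 0 times in all sgControl libraries and 1, 3 and 6 times in sgRFX6.

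**Figure D2:**
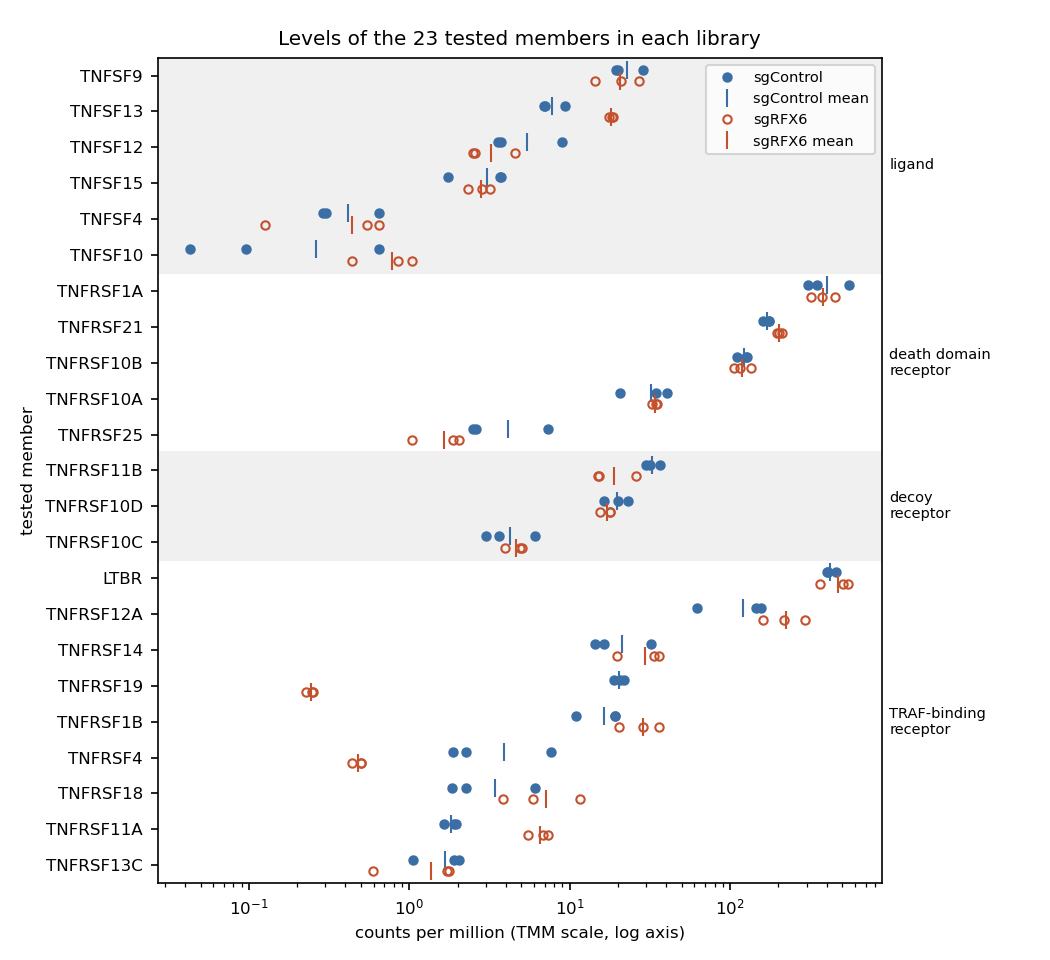
CPM (TMM scale, logarithmic horizontal axis) of the 23 tested members in each library, with sgControl as filled and sgRFX6 as open circles and short lines for the group means. TNFRSF19 lies at 18.9 CPM or more in all sgControl libraries and at 0.251 CPM or less in all sgRFX6 libraries, whereas TNFRSF1A and LTBR lie at 305 CPM or more in every library of both groups.

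None of the 5 tested death domain receptors passed the threshold of edgeR or DESeq2, beside 3.74% and 6.97% of all tested genes. In edgeR 1 of them, TNFRSF25, had an unadjusted p under 0.05, beside 15.6% of all tested genes. Limma-voom called 2 of the 5, TNFRSF1A and TNFRSF21, beside 31.1% of all tested genes. TNFRSF1A, the main receptor of TNF, had 347, 552 and 305 CPM in sgControl and 452, 372 and 319 CPM in sgRFX6. The groups overlapped, with sgControl library 2 above all others. Its log2 fold change was -0.08 (SE 0.25, edgeR adjusted p = 0.941). Limma-voom gave 0.40 in the opposite direction (adjusted p = 0.0416).

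TNFRSF10A and TNFRSF10B encode the death receptors of TRAIL. TNFRSF10A had 40.6, 20.7 and 34.5 CPM in sgControl and 35.1, 34.4 and 32.6 CPM in sgRFX6. TNFRSF10B had 127, 126 and 111 CPM against 135, 116 and 107 CPM. Both overlapped between the groups, with log2 fold changes of 0.09 (SE 0.26) and -0.03 (SE 0.16) and edgeR adjusted p of 0.929 and 0.970. They lie with TNFRSF10C and TNFRSF10D in 1 cluster of related genes on chromosome 8, among which the counting could split reads.

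TNFRSF21, a receptor best known from neurons and lymphocytes, had 175, 174 and 161 CPM in sgControl and 210, 202 and 195 CPM in sgRFX6. All knockout libraries were higher, by a small amount, with a log2 fold change of 0.25 (SE 0.15, edgeR adjusted p = 0.484). TNFRSF25, the receptor of the TNFSF15 ligand, had 2.60, 7.33 and 2.50 CPM in sgControl and 2.04, 1.89 and 1.04 CPM in sgRFX6. The groups did not overlap, and sgControl library 2 stood above the other control libraries. The log2 fold change was -1.33 (SE 0.50, edgeR adjusted p = 0.227), and it was -0.63 without sgControl library 2. TNFRSF25 shares 104 exon bases with PLEKHG5 on the same strand and 383 with ESPN on the other, and the strand used in counting is not given in the sources used here. PLEKHG5 had -1.09 (SE 0.36, edgeR adjusted p = 0.166), at 16.8 CPM in sgControl and 7.93 CPM in sgRFX6. ESPN had 0.34 (SE 0.50, edgeR adjusted p = 0.839). The part of shared reads in the value of TNFRSF25 was not tested. FAS, a classical death receptor, was near the floor, counted 1, 4 and 1 times in sgControl and 0 times in all sgRFX6 libraries. FAS shares 380 exon bases with ACTA2 on the other strand. EDAR had 1 count in 1 sgControl library.

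None of the 3 tested decoy receptors passed the threshold of edgeR or DESeq2, beside 3.74% and 6.97% of all tested genes. In edgeR 1 of them (TNFRSF11B) had an unadjusted p under 0.05, beside 15.6% of all tested genes. Limma-voom called 2, TNFRSF11B and TNFRSF10C, beside 31.1% of all tested genes. TNFRSF11B encodes osteoprotegerin, which binds the ligand of TNFRSF11A. It had 36.5, 31.6 and 29.7 CPM in sgControl and 15.1, 15.3 and 25.8 CPM in sgRFX6. The groups did not overlap, and sgRFX6 library 3 was nearest to the controls. The log2 fold change was -0.80 (SE 0.26, edgeR adjusted p = 0.164). Without sgRFX6 library 3 it was -1.09 (edgeR adjusted p = 0.0187), and with offsets for GC content it was -0.87 (edgeR adjusted p = 0.00842).

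TNFRSF10D, a decoy of TRAIL, had 23.2, 16.3 and 20.1 CPM in sgControl and 17.9, 17.7 and 15.4 CPM in sgRFX6. The groups overlapped, with a log2 fold change of -0.22 (SE 0.22, edgeR adjusted p = 0.728). The other decoy of TRAIL, TNFRSF10C, lay between 3.02 and 6.08 CPM with overlapping groups. TNFRSF6B was counted 8 times in 1 sgControl library and 0 times in the other 5, and it shares 1141 exon bases with a readthrough transcript of RTEL1.

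The other 3 members that edgeR called were receptors that bind TRAF proteins and lack a death domain. In this class 9 members were tested, so edgeR called 3 of 9, beside 3.74% of all tested genes. Limma-voom called all 9, beside 31.1% of all tested genes. TNFRSF19, also called TROY, activates JNK and NF-kB and is known from progenitor cells of skin, brain and gut. It lies on chromosome 13 (GRCh38, 23570370 to 23676104, forward strand). It was counted 393, 536 and 474 times in sgControl and 5, 4 and 5 times in sgRFX6, which is 18.9, 21.7 and 20.5 CPM against 0.248, 0.251 and 0.227 CPM. Counts in the knockout libraries were thus just above the floor of 3 counts, and the libraries of each group lay close together. TNFRSF19 fell by 6.36 on the log2 scale (SE 0.30, edgeR adjusted p = 8.84e-05), and it was called under all 17 alternatives, between -6.43 and -6.20.

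The 10 tested genes nearest to it, 5 on each side, had log2 fold changes between -0.39 and 0.40 with a median of 0.08, none of them past the threshold, and the nearest 50 had a median of 0.04. Farther out, SHISA2, a gene that acts on Wnt and FGF receptors and the eighth after TNFRSF19, fell by 1.63 on the log2 scale (SE 0.25, edgeR adjusted p = 0.00868).

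RefSeq lists 2 start sites for TNFRSF19 in GRCh38.p14, and the windows from 250 bases before to 50 bases after each are shown because this gene changed most. The first is chr13:23570162-23570461 and the second is chr13:23579110-23579409, both on the forward strand. Capitals mark GTTGCC, the half-site of the X-box motif that RFX proteins bind, which was searched on both strands and was the only motif searched.
TNFRSF19, first start: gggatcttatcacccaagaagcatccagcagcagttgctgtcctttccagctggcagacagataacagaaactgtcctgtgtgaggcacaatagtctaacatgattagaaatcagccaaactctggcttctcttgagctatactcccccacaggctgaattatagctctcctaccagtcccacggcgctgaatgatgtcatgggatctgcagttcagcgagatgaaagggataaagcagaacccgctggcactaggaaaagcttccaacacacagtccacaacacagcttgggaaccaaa
TNFRSF19, second start: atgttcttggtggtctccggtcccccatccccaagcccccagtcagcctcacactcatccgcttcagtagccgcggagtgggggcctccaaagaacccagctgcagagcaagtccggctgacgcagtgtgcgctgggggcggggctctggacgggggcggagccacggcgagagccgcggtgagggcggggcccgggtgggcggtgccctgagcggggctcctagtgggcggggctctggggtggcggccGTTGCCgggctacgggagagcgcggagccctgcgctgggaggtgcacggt
The half-site begins at the second start itself, at distance 0. Windows were found for 25 members (32 windows, 16 of them of tested members), and this was the 1 window of the 32 that held it. Beside this, 12.19% of all 35116 RefSeq windows of the same length held it. No window was found for the called member TNFRSF4, which was therefore not searched. A match to letters is not a binding site, and no binding data were analysed here.

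TNFRSF4 encodes OX40, a costimulatory receptor of activated T cells, and lies on chromosome 1 (GRCh38, 1211326 to 1214138, reverse strand). It was counted 39, 188 and 52 times in sgControl and 10, 7 and 11 times in sgRFX6, which is 1.88, 7.61 and 2.24 CPM against 0.497, 0.440 and 0.50 CPM. The groups did not overlap, and sgControl library 2 was far above the other control libraries. TNFRSF4 fell by 3.01 on the log2 scale (SE 0.61, edgeR adjusted p = 0.0286), and by 2.09 without sgControl library 2 (edgeR adjusted p = 0.0261). The call was lost without sgRFX6 library 1, 2 or 3 (edgeR adjusted p = 0.105, 0.0930 and 0.0651). Summed leukocyte markers, mostly CD68, were also highest in sgControl library 2, as were summed liver tumour cell markers, at 163 and 358 CPM. Summed endothelial markers were lowest there, at 11.6 CPM. T-cell CD3E had at most 1 count in any library, and a link of any of these markers to TNFRSF4 was not tested.

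The gene next to TNFRSF4 is TNFRSF18, which encodes another costimulatory receptor of T cells. TNFRSF18 had the opposite sign, with a log2 fold change of 1.07 (SE 0.54, edgeR adjusted p = 0.405) and from 1.86 to 6.08 CPM in sgControl and from 3.86 to 11.7 CPM in sgRFX6. Its groups overlapped. In sgControl it was again library 2 that was highest. Both genes are rich in GC, with 69.9% in TNFRSF4 and 68.1% in TNFRSF18, and with offsets for GC content the value of TNFRSF4 was -2.93 (edgeR adjusted p = 0.0123). TNFSF4, the ligand of OX40, had a log2 fold change of 0.11 (SE 0.61). The 10 tested genes nearest to TNFRSF4, 5 on each side, lay between -0.34 and 1.07 with a median of -0.02. Farther out, TAS1R3 fell by 2.55 (SE 0.39, edgeR adjusted p = 0.00918).

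TNFRSF11A encodes RANK, the receptor that drives the formation of osteoclasts, and lies on chromosome 18 (GRCh38, 62325287 to 62391292, forward strand). It was counted 34, 48 and 44 times in sgControl and 147, 88 and 150 times in sgRFX6, which is 1.64, 1.94 and 1.90 CPM against 7.30, 5.53 and 6.81 CPM. All knockout libraries were above all control libraries. TNFRSF11A rose by 1.84 on the log2 scale (SE 0.28, edgeR adjusted p = 0.00862). The median over the 50 tested genes nearest to it was 0.39, and with this regional shift removed the value was 1.45 (edgeR adjusted p = 0.0239). The call was lost without sgControl library 3 (edgeR adjusted p = 0.0529). The decoy TNFRSF11B, described above, had the opposite sign without passing the threshold. The ligand that both bind, TNFSF11, had no row under that symbol in the table of counts. The 10 tested genes nearest to TNFRSF11A, 5 on each side, lay between -0.19 and 0.56 with a median of 0.41. Farther out, ALPK2 fell by 1.76 (SE 0.38, edgeR adjusted p = 0.0374).

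LTBR, the lymphotoxin beta receptor, shares 422 exon bases with SCNN1A on the other strand. It had 406, 455 and 404 CPM in sgControl and 543, 509 and 365 CPM in sgRFX6. The groups overlapped, with a log2 fold change of 0.16 (SE 0.19, edgeR adjusted p = 0.786), and limma-voom gave 0.37 (adjusted p = 0.0138). TNFRSF12A, the receptor of TWEAK, had 145, 61.8 and 156 CPM in sgControl and 216, 293 and 161 CPM in sgRFX6. The groups did not overlap, though sgRFX6 library 3 was close to sgControl library 3. The log2 fold change was 0.89 (SE 0.35, edgeR adjusted p = 0.258), and 0.57 without sgControl library 2. Limma-voom gave 0.65 (adjusted p = 0.0158) for TNFRSF12A. Its ligand TNFSF12 had the value of -0.75 given above.

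TNFRSF1B, the receptor of TNF that lacks a death domain, had 11.0, 19.1 and 19.3 CPM in sgControl and 28.7, 36.3 and 20.4 CPM in sgRFX6. All knockout libraries were higher, with sgRFX6 library 3 just above the controls. The log2 fold change was 0.79 (SE 0.30, edgeR adjusted p = 0.241), and with offsets for GC content it was 0.83 (edgeR adjusted p = 0.0322). Limma-voom gave 0.82 (adjusted p = 0.00844) for TNFRSF1B. TNFRSF14, the receptor of TNFSF14, had 14.5, 32.4 and 16.4 CPM in sgControl and 35.9, 33.5 and 19.7 CPM in sgRFX6. The groups overlapped, with a log2 fold change of 0.49 (SE 0.36, edgeR adjusted p = 0.590), and limma-voom gave 1.07 (adjusted p = 0.000697).

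TNFRSF13C, a receptor of B cells, lay between 0.596 and 2.03 CPM with overlapping groups. CD27, TNFRSF8 and TNFRSF9, which are receptors of lymphocytes, had at most 6 counts in any library and were not tested. TNFRSF9 was counted 3, 1 and 1 times in sgControl and 0 times in all sgRFX6 libraries.

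**Figure D3:**
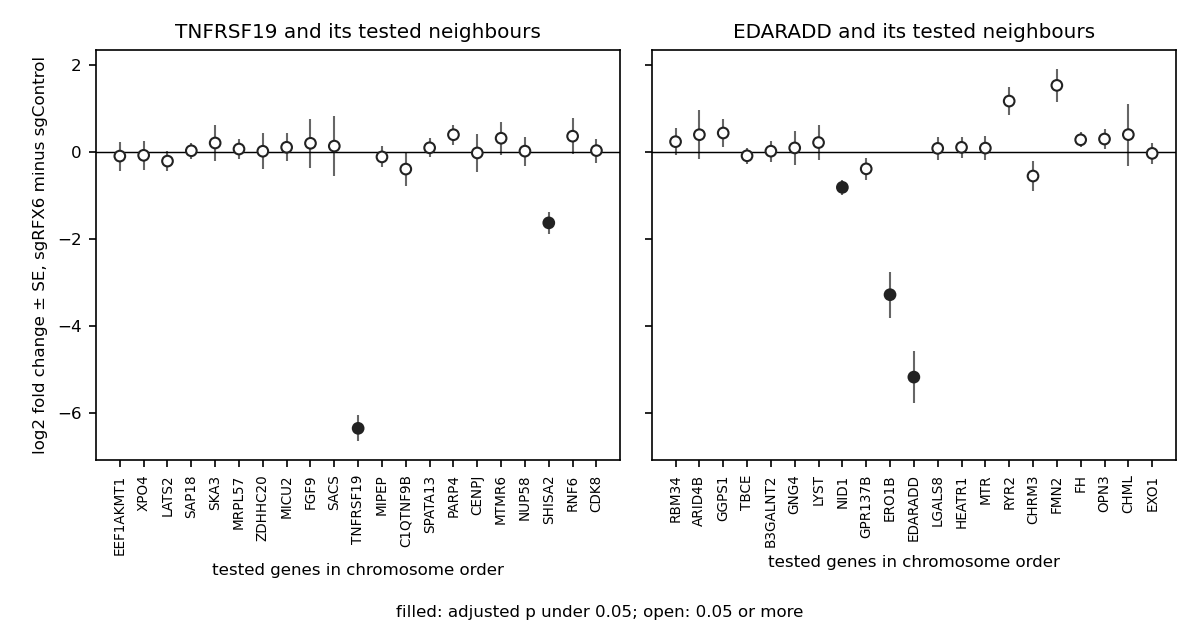
Log2 fold changes (sgRFX6 minus sgControl, with standard errors) of TNFRSF19 and EDARADD and of the 10 tested genes on each side of them in chromosome order. Filled circles have adjusted p under 0.05. TNFRSF19 lies at -6.36 with SHISA2 (-1.63) as the other filled point of its panel, and EDARADD (-5.18) lies beside ERO1B (-3.29).

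Levels were compared between members as CPM per kilobase of exon, averaged over the sgControl libraries. TNFRSF1A was highest at 100.2 ± 33.0 (SD, n = 3), followed by LTBR at 67.2 ± 4.59, TNFRSF12A at 65.4 ± 27.8, TNFRSF21 at 47.3 ± 2.32 and TNFRSF10B at 23.5 ± 1.74. Of the 22 neighbouring pairs in this order, 7 were apart in all sgControl libraries. LTBR and TNFRSF12A overlapped, as did TNFRSF12A and TNFRSF21, whereas TNFRSF21 was apart from TNFRSF10B.

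The highest ligand was TNFSF9 at 13.6 ± 3.04 CPM per kilobase, sixth in the order, and TNFSF13 was twelfth at 3.40 ± 0.613. Among the 23 tested members TNFRSF19 moved from place 11 in sgControl, at 3.98 ± 0.272 CPM per kilobase, to place 23 in sgRFX6, at 0.0474 ± 0.00259. TNFRSF4 moved from place 16 to place 20, TNFRSF11A from place 21 to place 16 and TNFSF13 from place 12 to place 8. The 10 highest members in sgControl held none of the 4 members that edgeR called, beside 3.74% called over all tested genes. Limma-voom called 6 of these 10, beside 31.1% of all tested genes. With offsets for GC content edgeR called 2, TNFRSF11B and TNFRSF1B, beside 10.6% of all tested genes.

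**Figure D4:**
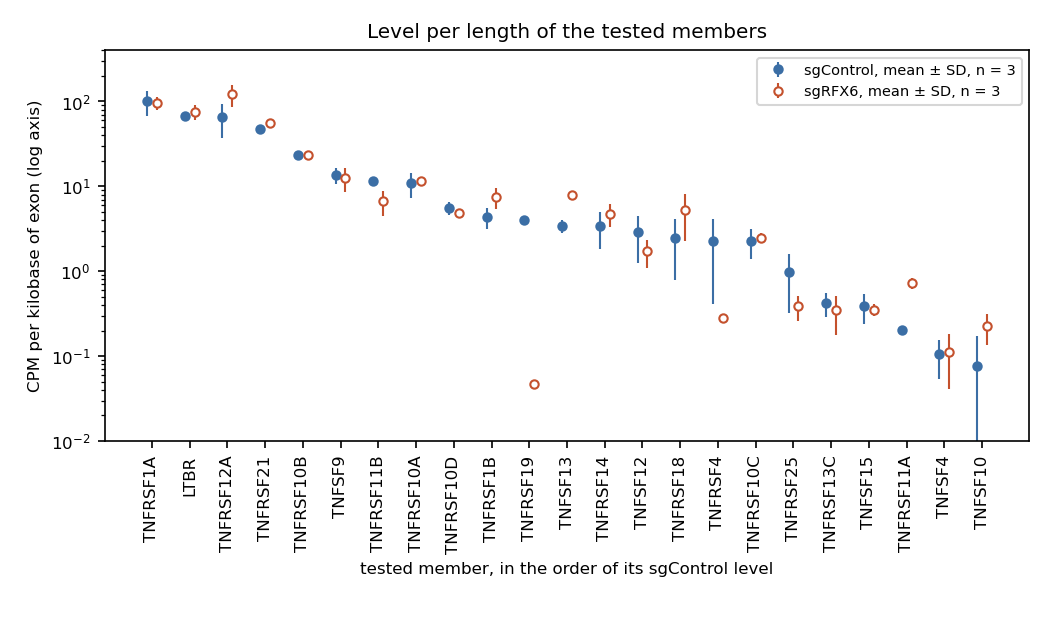
CPM per kilobase of exon (mean ± SD over 3 libraries, logarithmic vertical axis) of the 23 tested members, in the order of their sgControl level. The lower bar of TNFSF10 in sgControl runs off the axis because its SD exceeds its mean. TNFRSF19 drops from 3.98 to 0.0474, and TNFRSF1A, at the upper end, lies at 100.2 in sgControl and 95.1 in sgRFX6.

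Downstream of the receptors, a list of 57 adaptors, kinases, caspases and NF-kB components was examined, of which 56 were in the table and all 56 were tested. Of these, 1 gene, EDARADD, had an adjusted p under 0.05, beside 3.74% of all tested genes, and the median log2 fold change of the list was 0.03. TNFRSF1A adaptors TRADD and RIPK1 had log2 fold changes of 0.21 and 0.16, TRAF2 had 0.01, CASP8 had 0.04 and its inhibitor CFLAR had 0.01, none past the threshold (edgeR adjusted p between 0.774 and 0.987). BIRC3, an inhibitor of apoptosis, had 1.53 (SE 0.44, edgeR adjusted p = 0.114), FADD had 0.64 (SE 0.17, edgeR adjusted p = 0.0949) and XIAP had 0.92 (SE 0.29, edgeR adjusted p = 0.153). In these 3 genes all sgRFX6 libraries were above all sgControl libraries, and the nearest 50 tested genes of BIRC3, FADD and XIAP had medians of 0.49, 0.36 and 0.59. Over the 56 genes the groups did not overlap in 8, 5 higher and 3 lower in sgRFX6. This stands beside 12.0% higher and 11.2% lower over all tested genes. Lower without overlap were EDARADD, SHARPIN (-0.40) and MAPK9 (-0.31), the last 2 not past the threshold.

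EDARADD encodes the adaptor of EDAR, the receptor of ectodysplasin, and lies on chromosome 1 (GRCh38, 236348257 to 236502915, forward strand). It was counted 119, 186 and 134 times in sgControl and 6, 0 and 4 times in sgRFX6. The groups were far apart, with the knockout libraries near the floor. EDARADD fell by 5.18 on the log2 scale (SE 0.59, edgeR adjusted p = 0.00276) and was called under all 17 alternatives. Its neighbour ERO1B fell by 3.29 (SE 0.53, edgeR adjusted p = 0.0114), and NID1, the third gene before it, fell by 0.81 (SE 0.17, edgeR adjusted p = 0.0346), while the nearest 50 tested genes had a median of 0.07. The receptor EDAR was at 1 count in all, and the ligand EDA had a log2 fold change of -1.10 (SE 0.37, edgeR adjusted p = 0.177) without overlap. Of the other family genes whose symbols fall outside the naming rule, RELT had 0.13 (SE 0.26) and NGFR had at most 11 counts in any library. LTA, CD40LG and EDA2R had no row under these symbols in the table of counts.

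Of 40 textbook targets of NF-kB, 38 were in the table and 28 were tested, and PTGS2 was the 1 called (3.57%, beside 3.74% of all tested genes), with a median log2 fold change of 0.03 over the list. Unadjusted p was under 0.05 for 6 of them, beside 15.6% of all tested genes. PTGS2, the inducible cyclooxygenase, had 25.0, 11.7 and 18.4 CPM in sgControl and 4.67, 3.39 and 6.04 CPM in sgRFX6. The groups did not overlap. PTGS2 fell by 1.96 on the log2 scale (SE 0.35, edgeR adjusted p = 0.0174), and the call was lost without sgControl library 3, sgRFX6 library 1 or sgRFX6 library 2 (edgeR adjusted p = 0.0761, 0.0767 and 0.0531). The inhibitors NFKBIA and TNFAIP3, which NF-kB induces in response to TNF, had -0.40 (SE 0.30) and -0.07 (SE 0.22), with overlapping groups. Both genes are in the signalling list too.

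**Figure D5:**
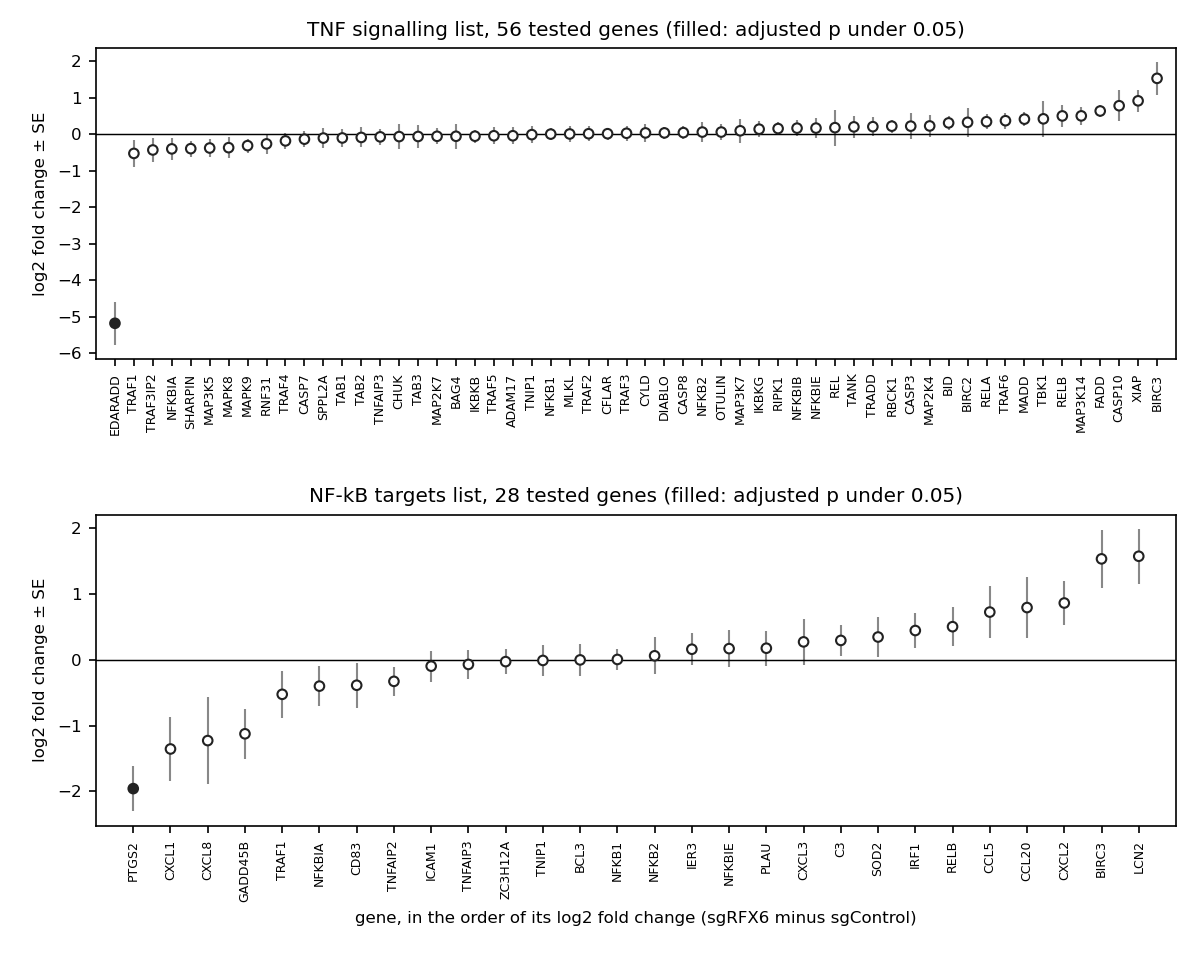
Log2 fold changes (sgRFX6 minus sgControl, with standard errors) of the 56 tested genes of the TNF signalling list and the 28 tested NF-kB targets, each ordered by value. One filled point in each panel passed the threshold, EDARADD at -5.18 and PTGS2 at -1.96, and the medians of both lists are 0.03.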

How the data were processed

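The authors deposited 1 table of raw counts, with 1 value per gene or transcript and library and no normalisation. Per the labels, RNA was isolated with Trizol, libraries were sequenced on an Illumina platform and the submitters' processing notes name GRCh38 (hg38). The aligner, the counting program, the annotation and the strand setting are not given in the sources used here. Columns were matched to samples by name and number, and nothing says that libraries came from separate cultures, so p-values measure only the spread between these libraries. One row without a gene name (at most 9.17e-05% of a library) was left out.

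Counts were analysed in R 4.3.3 with edgeR 4.0.16 (filterByExpr, minimum count 10, TMM factors, quasi-likelihood test over 6 libraries without covariates, Benjamini-Hochberg adjustment over 12839 genes, threshold 0.05). Standard errors came from the log2 fold change and F. An exact permutation test of 3 against 3 cannot go below 0.1 and was not used. Alternatives were DESeq2 1.42.0, limma-voom (limma 3.58.1) with sample quality weights, RLE factors, library size only, robust dispersion, other filters (none, or a minimum count of 30), a replicate block, offsets for GC content (smooth trend, span 0.3), offsets for the nearest 50 genes, and each library left out in turn. The edgeR, limma-voom, DESeq2 and offset fits were tested on simulated counts. Positions, exon lengths and GC content came from GENCODE 29 on GRCh38, which matched 15422 symbols by name and gave GC for 12002 tested genes. Promoter windows came from RefSeq, GRCh38.p14.

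Members and lists were chosen with earlier results of these data known. A member was given in every library if it had an adjusted p under 0.05, or a log2 fold change of at least 1 in size without overlap, or a mean of at least 10 CPM in either group. Called genes of the signalling and target lists, RFX6, and family symbols outside the rule were named as well. Other list genes, markers and neighbours are named as examples chosen after their values were seen. EDARADD and PTGS2 were added to the alternatives after the data were seen. The floor of 3 counts covers counting error only, since PCR reads are not independent molecules.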

Additional observations from a re-analysis of the deposited data

How the results depend on the processing

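The same 4 members (TNFRSF19, TNFRSF4, TNFRSF11A and TNFSF13) were called with RLE factors, library size only, DESeq2, robust dispersion, no filter, a minimum count of 30, the replicate block and regional offsets, and the offsets for GC content, with or without the block, called 6, these 4 with TNFRSF11B and TNFRSF1B. Limma-voom called 15 (11 higher, 4 lower), and with 1 library left out between 2 and 4 were called. Over all tested genes the count was 480 (3.74%), against 895 (6.97%) with DESeq2, 3998 (31.1%) with limma-voom and 648 (5.05%) with the replicate block. GC offsets called 1355 (10.6%), and 798 (6.22%) with the block. With 1 library left out it was from 212 (1.62%, sgControl library 3 removed) to 718 (5.52%, sgRFX6 library 3 removed). The median of the members was 0.33 with limma-voom and between -0.04 and 0.22 with 1 library left out. Of the 56 TNF signalling genes, 3 were called with DESeq2, 17 with limma-voom, 2 with the replicate block and 6 with GC offsets. With GC offsets and the block 3 were called, and with 1 library left out 1 to 2. Of the NF-kB targets, 28 of them tested in the main fit, 3 were called with DESeq2, 9 with limma-voom and 4 with GC offsets. With 1 library left out 0 to 1 were called. These counts stand beside the shares of all tested genes above, and nothing is read from them. The cause of these shifts was not tested.

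Replicate numbers did not pair the libraries: deviations of same-numbered libraries correlated at -0.41, 0.17 and -0.09, and no library matched its own number best. With the replicate block 4 members and 648 genes in all were called. Of the 12 uncalled members that were run under the alternatives, 4 changed sign. TNFRSF10A was -0.00018 with limma-voom, -0.0031 with regional offsets and between -0.14 and 0.30 with 1 library left out. TNFRSF10B was 0.17 with limma-voom and between -0.12 and 0.053 with 1 left out. TNFRSF1A was 0.40 with limma-voom, 0.012 with GC offsets and the block, and between -0.22 and 0.22 with 1 left out. TNFSF9 was 0.21 with limma-voom, 0.0046 with regional offsets and between -0.37 and 0.081 with 1 left out. The 15 untested members had at most 16 counts in any library and did not pass the filter on low counts.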
